A study of Mus musculus with 8 samples.

Results

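The Nat8 acetyltransferase family was examined in cortical mRNA of mice that carry the Ago2 substitution L192P. Its 9 members, Nat8l, Nat8 and Nat8f1 to Nat8f7, were taken by symbol from a count table of 55416 genes. The labels give the tissue as cerebral cortex and the genotypes as AGO2_L192P/+, a heterozygous knock-in (L192P), and wild type (WT), with 4 libraries of each. The knock-in was made in C57BL/6JUke embryos with Cas9 and a repair template that also carried a silent change, and age and sex are not in the labels. The labels do not say that each library came from its own animal, so every p-value measures the spread between these libraries. The family was selected on its L192P against WT difference in these same libraries. Those differences are therefore given as a description and support nothing further.

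Enzymes of this family carry the GNAT fold and move an acetyl group from acetyl-CoA to an amine. Nat8l, also known as Shati, makes N-acetylaspartate (NAA) in neurons, one of the most abundant small metabolites of the brain. Nat8 acetylates cysteine conjugates in the mercapturate pathway, which disposes of electrophiles, and a human relative of the cluster acetylates lysines of proteins in the endoplasmic reticulum (ER). The functions of Nat8f1 to Nat8f7, formerly named Cml genes in part, are less well known. Argonaute 2, the product of Ago2, carries miRNAs to their target mRNAs.

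Library totals ran from 20396357 to 43575900 counts, and WT replicate 2 was the deepest. Values are normalized counts, which are counts divided by a DESeq2 size factor. Ago2 itself was at 2291 ± 75.1 in L192P and 2246 ± 130.4 in WT (SD, n = 4), and this level does not check a single-base allele. Replicate 1 of each genotype had almost no Xist, at 0.9 and 1.8 against 5185 to 7257 in the other 6 libraries. Y chromosome counts were 3547 in L192P replicate 1 and 3534 in WT replicate 1, against 186 to 573 in the other 6. By these values replicate 1 was male in both genotypes and the other 6 libraries were female. Fits that leave out a replicate 1 library therefore also change the balance of the sexes. Of 47 marker genes for brain cell types, choroid plexus, hypothalamus and kidney tubule, 41 were tested. In L192P 4 were higher (Gad2, Oxt, Avp and the kidney marker Slc22a6) and none was lower. Over all 18627 genes tested, 1.36% were called, 147 higher and 106 lower. The summed hypothalamic markers ran from 70.6 to 1107 in L192P and from 48.9 to 193.2 in WT. Among the 5 markers of kidney, where Nat8 is best known, Umod and Kap were at 0 in every library and Slc22a6, an organic anion transporter, was the called one, at 173.9 in L192P and 110.8 in WT. Slc34a1 was at 3.3 in L192P and 3.4 in WT, and Lrp2 at 2.8 in both. The summed kidney markers were mostly Slc22a6 and ran from 145.7 to 212.2 in L192P and from 99.9 to 128.8 in WT. Their part in the results on the family was not tested.

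Nat8l stands alone on chromosome 5 (GRCm39, chr5:34153327-34163260, plus strand). The other 8 members lie on the minus strand of chromosome 6 within 209.6 kb, at chr6:85683709-85893261. The proteins of the cluster are 222 to 238 residues long and that of Nat8l has 299. Nat8f5 occupies chr6:85793428-85797972, inside the annotated extent of Nat8f6 and next to Nat8. The following 60 bases of coding sequence are all from GRCm39 and written 5′ to 3′ on the gene's strand. They cover the region of the acetyl-CoA binding motif of the GNAT fold. The pattern of this motif matched at 2 overlapping positions in the Nat8f5 protein, the first from residue 146. The proteins of Nat8, Nat8f1, Nat8f2 and Nat8f4 also had 2 matches. Those of Nat8f3, Nat8f6 and Nat8f7 had 1, within the same stretch. The bases are shown to compare the members over the same stretch, and capitals mark bases that differ from Nat8f5. They do not tell how far reads over whole exons can be told apart, which is given below.
Nat8f5: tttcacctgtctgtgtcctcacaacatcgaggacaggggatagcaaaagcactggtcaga
Nat8f4: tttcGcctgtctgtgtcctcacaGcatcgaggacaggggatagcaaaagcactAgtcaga
Nat8: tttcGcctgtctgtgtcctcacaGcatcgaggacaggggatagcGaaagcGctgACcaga
Nat8f3: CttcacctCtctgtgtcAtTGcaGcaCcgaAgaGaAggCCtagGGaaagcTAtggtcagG

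These stretches lie at chr6:85794485-85794544 in Nat8f5, chr6:85878048-85878107 in Nat8f4, chr6:85807655-85807714 in Nat8 and chr6:85738284-85738343 in Nat8f3. Nat8f4 differed from Nat8f5 at 3 of the 60 bases, Nat8f2 at 4, Nat8 at 6 and Nat8f3 at 17. Nat8f1 had the same 60 bases as Nat8, and Nat8f6 and Nat8f7 had the same 60 bases as Nat8f3.

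Near-identity held for one trio only. The coding sequences of Nat8f3, Nat8f6 and Nat8f7 were 99.6% to 99.7% identical to each other. Nat8f5 was closest to Nat8f1, at 81.1% of aligned coding bases, and to Nat8, at 80.1%. Nat8f2 and Nat8f4 were 89.2% identical. Nat8l was the most distant member, with 63.5% to 67.0% of coding bases and 32.7% to 39.1% of residues shared with the others.

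How far reads can be told apart was measured by cutting each member's exons into overlapping words of 75 bases and looking each up in the whole genome. All words of Nat8f5 and of Nat8l occurred once. The share was 97.4% for Nat8, 92.3% for Nat8f1, 89.9% for Nat8f4 and 89.0% for Nat8f2. It fell to 37.6% in Nat8f6, 36.8% in Nat8f3 and 19.9% in Nat8f7, whose repeated words were found in each other and elsewhere. The treatment of reads with several matches is not given in the sources used here, so the counts of this trio are uncertain. Nat8f5 and Nat8f6 are annotated from the same start and share 171 exonic bases on the same strand, 8.68% of the Nat8f5 exons. Nat8f1 overlaps Tprkb, a subunit of a tRNA-modifying complex, by 932 exonic bases on the opposite strand, and whether counting used strand is not given.

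**Figure D1:**
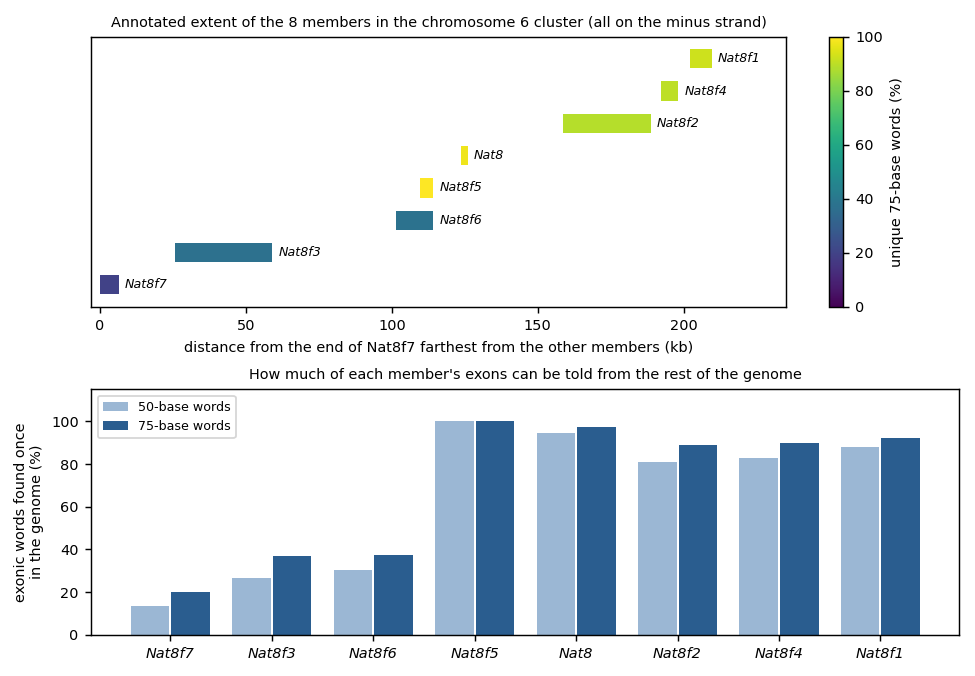
Upper panel, annotated extent of the 8 chromosome 6 members as distance in kb, coloured by the percentage of 75-base exonic words found once in the genome. Lower panel, that percentage for words of 50 and 75 bases. Nat8f7, Nat8f3 and Nat8f6 stand at 19.9% to 37.6% for 75 bases, and Nat8f5 at 100%.

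Because of the shared start, the windows from 250 bases before to 50 bases after the starts of Nat8f5 and Nat8f6 are 1 sequence, at chr6:85797923-85798222. It holds the motif CCAAT once, 34 bases before the start. The motif, searched on both strands, occurred in 37.4% of 32851 RefSeq windows of the same length. The window of Nat8f2 held a CCAAT after its start and the windows of the other members held none. The windows of Nat8l and Nat8f1 held 30 and 31 CG pairs, that of Nat8f5 held 3, and the median RefSeq window held 7.

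Nat8l was the dominant transcript of the family. Per 1000 exonic bases, the mean level over the 8 libraries was 1850 normalized counts for Nat8l, followed by Nat8f1 at 54.6, Nat8f4 at 51.6, Nat8 at 16.1, Nat8f3 at 12.5, Nat8f5 at 12.4, Nat8f7 at 4.90, Nat8f6 at 3.12 and Nat8f2 at 0.766. Each member was set against the next with an exact two-sided sign-flip permutation test over the 8 libraries, adjusted over the 8 neighbouring positions, and the order was taken from the same libraries. Nat8l exceeded Nat8f1 in 8 of 8 libraries (exact permutation, adjusted p = 0.0312), Nat8f4 exceeded Nat8 in 8 of 8 (adjusted p = 0.0312) and Nat8f6 exceeded Nat8f2 in 7 of 8 (adjusted p = 0.0417). Same-numbered libraries varied together, and with the 4 pairs flipped as units each of these 3 differences had an unadjusted exact permutation p of 0.125, the smallest that 4 pairs allow, so none could pass at that level. The remaining neighbours did not pass, with exact permutation adjusted p from 0.109 to 0.484, which does not show that their levels are equal. On the scale of 1000 unique 75-base words, Nat8f3 came to 38.3 and Nat8f7 to 28.1, both above Nat8 at 21.0 and Nat8f5 at 13.4, so the middle of this order depends on how reads with several matches were counted.

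Nat8f5 was the member with a call between the genotypes. Its normalized counts were 9.3, 18.2, 13.8 and 13.2 in L192P replicates 1 to 4. In WT replicates 1 to 4 they were 37.3, 37.8, 19.6 and 45.7. The groups did not overlap, and WT replicate 3 lay close to the highest L192P library. The means were 13.6 ± 3.63 in L192P and 35.1 ± 11.0 in WT (SD, n = 4), a log2 difference of -1.38 (SE 0.38, 95% interval from -2.13 to -0.63). In bulk tissue, fewer cells of a type and less RNA per cell cannot be told apart. In linear terms the L192P level was 0.385 of the WT level. DESeq2 gave an adjusted p of 0.0293, and Nat8f5 was the 1 member of 9 called, beside 1.36% of all 18627 genes tested. It was also the 1 member whose groups did not overlap, beside 5.97% of the genes tested. Since the family was selected on this contrast, nothing is read from either count.

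The Nat8f5 values rest on few reads. The L192P libraries held 10, 16, 12 and 11 counts, 49 in all, and the WT libraries 41, 67, 18 and 39, 165 in all. The exact Poisson 95% interval of the lowest library, L192P replicate 1, ran from 4.8 to 18.4 counts, and that of WT replicate 3 from 10.7 to 28.4. These intervals cover counting error only. Same-numbered libraries differed by -1.89, -1.02, -0.47 and -1.72 on the scale of log2(normalized count + 1), so L192P was lower in each of the 4 pairs. The share of all genes with each pair in the same direction was not counted. Nothing is read from such agreement here or in the other members.

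The call of Nat8f5 depended on the fit. The 20 alternative fits reuse the same libraries on which the family was selected. Since the groups did not overlap, these fits could not turn the sign, and their agreement supports nothing further. Their log2 differences lay between -1.57 and -1.19. The adjusted p was under 0.05 in 7 of the 18 alternatives that defined one and ran from 0.012 to 0.256. Without L192P replicate 1, 3 or 4 it was 0.126, 0.116 and 0.114, and without WT replicate 1, 2 or 4 it was 0.0672, 0.186 and 0.256. With independent filtering off it was 0.0512. edgeR gave 0.112 and limma-voom 0.146 with their low-count filter, and 0.012 and 0.194 without it. With the replicate number as a block, DESeq2 left the adjusted p undefined under its filter on low means, and it was 0.175 with that filter off, at a log2 difference of -1.34.

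**Figure D2:**
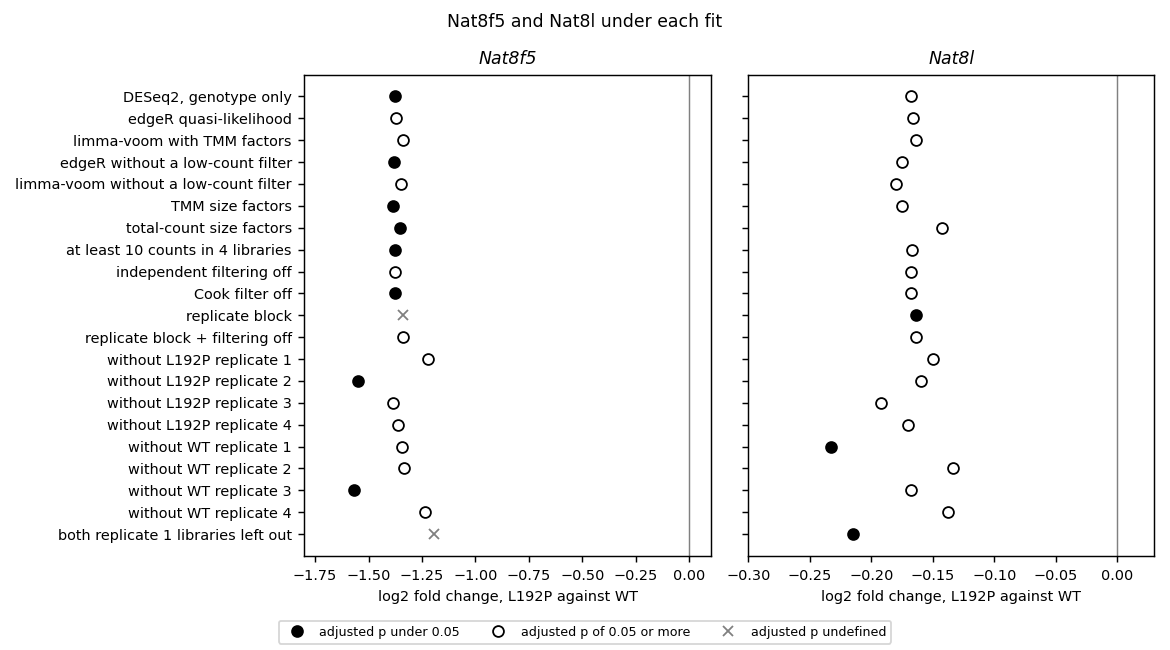
Log2 fold change of Nat8f5 (left) and Nat8l (right), L192P against WT, under each fit named on the vertical axis. Filled circles have an adjusted p under 0.05, open circles 0.05 or more, and crosses have none defined. All Nat8f5 values lie between -1.57 and -1.19 and all Nat8l values between -0.23 and -0.13.

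Nat8l, the NAA synthase, differed little. Its normalized counts were 11549, 11813, 12659 and 12100 in L192P replicates 1 to 4. They were 11678, 14500, 13521 and 14365 in WT replicates 1 to 4. WT replicate 1 lay within the L192P range and the other WT libraries lay above it. On the scale of log2(normalized count + 1), L192P was lower in each same-numbered pair, with differences of -0.02, -0.3, -0.1 and -0.25. The log2 difference was -0.17 with a standard error of 0.07, and DESeq2 gave an adjusted p of 0.372. With the replicate number as a block the difference was -0.16 and the adjusted p 0.0372, which became 0.0925 with independent filtering off. Without WT replicate 1 it was -0.23 with an adjusted p of 0.00416, and without both replicate 1 libraries -0.21 with 0.00662.

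Excitatory neuron markers, like Nat8l, were lowest in L192P replicate 1 and highest in WT replicates 2 to 4. Their summed normalized counts were 124400, 135100, 132300 and 136500 in L192P and 132800, 161800, 153000 and 150000 in WT. None of the 5 markers was called, and their median log2 difference was -0.22. Their part in the Nat8l difference was not tested.

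Nat8f4 and Nat8f1 made up 75.6% to 85.4% of the cluster's normalized counts in each library. Nat8f4 was at 242, 258.3, 295.2 and 305.5 in L192P and at 206.7, 287, 271.6 and 412.1 in WT. Nat8f1 was at 152.3, 180.9, 199.5 and 183.3 in L192P and at 172.1, 205.1, 164 and 218.9 in WT. Both groups overlapped for either gene. The log2 differences were -0.09 (SE 0.18) for Nat8f4 and -0.09 (SE 0.15) for Nat8f1, and neither was called in any of the 20 alternatives.

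Nat8, the cysteine conjugate acetyltransferase, ranged from 17.8 to 28.7 in L192P and from 21.9 to 53.1 in WT. Its highest value was that of WT replicate 2, and the log2 difference of -0.53 (SE 0.38) had an adjusted p of 0.758 in DESeq2. Without that library the difference was -0.16. L192P was lower in each of the 4 same-numbered pairs, with differences of -0.29, -0.93, -0.29 and -0.18 on the scale of log2(normalized count + 1). Nat8f2 was barely detected, with 12 counts over the L192P libraries and 14 over the WT libraries, and its adjusted p was undefined.

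The trio of near-identical members pointed in different directions. Nat8f3 was at 30.8, 38.7, 36.9 and 20.4 in L192P and at 40.1, 54.2, 32.6 and 64.4 in WT. Nat8f7 was at 5.6, 13.7, 20.8 and 9.6 in L192P and at 1.8, 3.4, 11.9 and 4.7 in WT. The groups overlapped in both genes, and L192P was the higher genotype for Nat8f7 in each of the 4 same-numbered pairs. The log2 differences were -0.59 (SE 0.30) and 1.22 (SE 0.66), with DESeq2 adjusted p of 0.53 and 0.573. Nat8f6 had 18 counts in L192P and 29 in WT and no defined adjusted p. Summed over the trio, which does not depend on which of the 3 a read was given to, the level was 49.2 ± 13.8 in L192P and 59.2 ± 12.6 in WT (SD, n = 4).

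**Figure D3:**
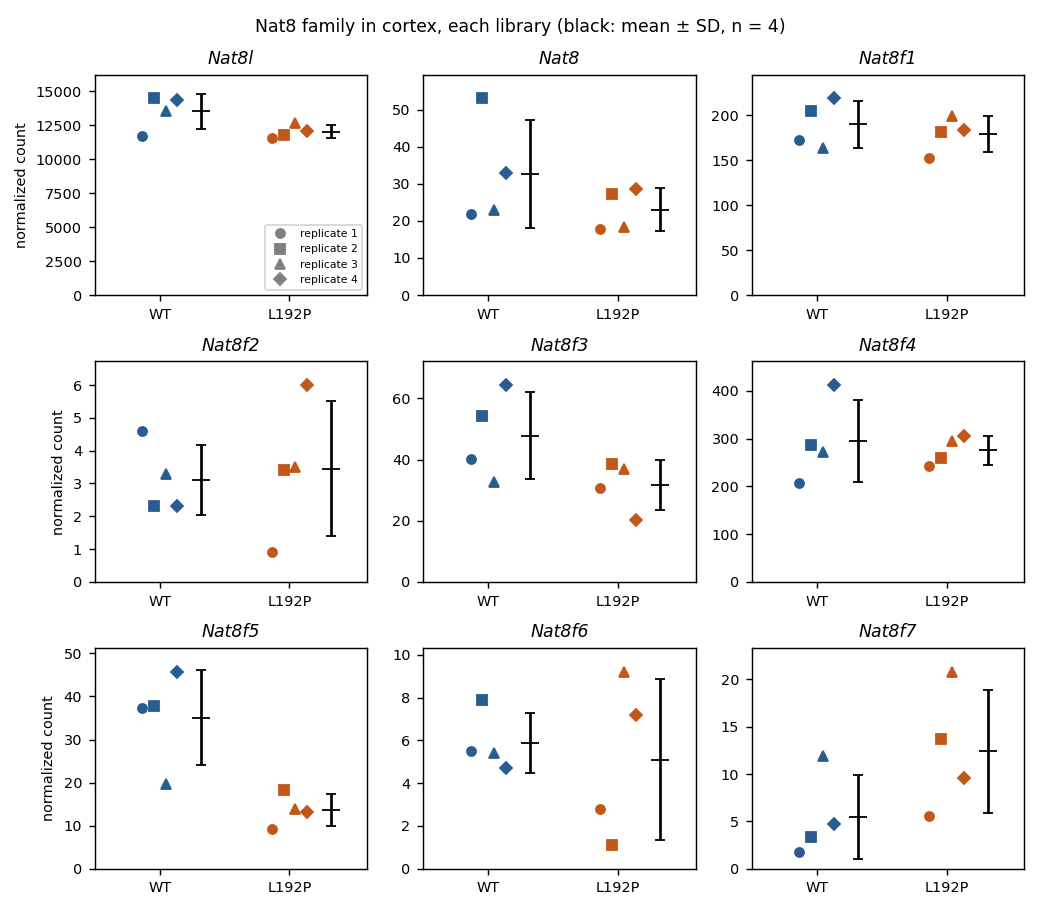
Normalized counts of each member in each library, WT in blue and L192P in orange, with the marker shape giving the replicate number and black bars the mean ± SD of 4 libraries. Each panel has its own vertical axis from 0. In Nat8f5 the L192P libraries lie between 9.3 and 18.2 and the WT libraries between 19.6 and 45.7.

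Over the 9 members, 7 had a negative log2 difference and 2 a positive one, with a median of -0.17. Over all genes tested the median was 0.0019 and 49.4% were negative. Leaving out 1 library turned the sign of Nat8f4 (0.10 without WT replicate 4), of Nat8f6 (0.08 without L192P replicate 2) and of Nat8f2 (-0.27 without L192P replicate 4 and -0.01 without WT replicate 2). Adjusted p-values were defined for 7 of the 9 members, and those of Nat8f2 and Nat8f6 were not.

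**Figure D4:**
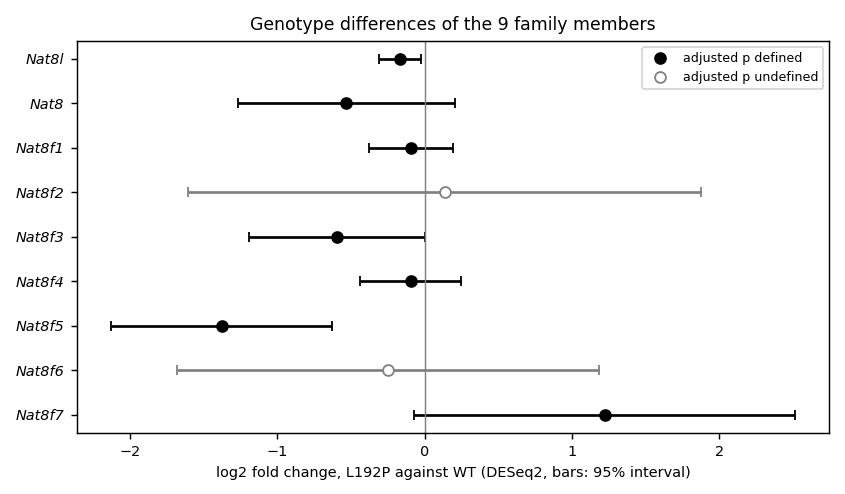
Log2 fold change of the 9 members, L192P against WT, from DESeq2 with bars for the 95% interval. Open grey circles mark Nat8f2 and Nat8f6, whose adjusted p was undefined. Estimates ran from -1.38 (Nat8f5) to 1.22 (Nat8f7).

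The summed cluster did not follow Nat8f5. The 8 chromosome 6 members together came to 461.5, 541.7, 597.3 and 573.8 normalized counts in L192P and to 489.9, 650.8, 531.2 and 785.5 in WT. The groups overlapped, with a mean log2 difference of -0.16 beside a between-library SD of 0.16 in L192P and 0.31 in WT. Without Nat8f5 in the sum the difference was -0.11. Nat8f5 took 2.02% to 3.36% of the sum in L192P and 3.68% to 7.62% in WT.

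Few genes around the cluster could be tested. Within 250 kb of it, 24 of 33 other annotated genes were in the table and 11 were tested. DESeq2 called 0 of the 11, with 1 at an unadjusted p under 0.05, and edgeR and limma-voom called 0. Beside 1.36% called over all genes, 0 of 11 is near the background. Alms1, a centrosomal gene beside the cluster, had a log2 difference of -0.05 (SE 0.15), and Tprkb, which overlaps Nat8f1, had one of 0.02 (SE 0.08).

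The pathways in which family members act were read from lists of 57 genes, of which 50 were tested. DESeq2 called 0 of the 50, with 4 at an unadjusted p under 0.05, and edgeR and limma-voom called 0, near the 1.36% called over all genes. The median log2 difference was -0.01. For NAA and N-acetylaspartylglutamate (NAAG) metabolism, the pathway of Nat8l, 15 of 15 genes were tested and their median was 0.06. Aspa, which cleaves NAA in oligodendrocytes, was at 514.8 in L192P and 538.8 in WT, a log2 difference of -0.06. Rimkla, a NAAG synthetase, was at 349.8 and 304.5. The differences of Rimklb, its relative, and of Folh1, which cleaves NAAG, were 0.06 and 0.12.

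The transporter and the receptor had the lowest adjusted p-values among the 15 genes of this pathway. Slc13a3, which takes up NAA, was at 440.1 ± 103.7 in L192P and 336.9 ± 24.9 in WT (log2 difference 0.38, SE 0.15, DESeq2 adjusted p = 0.286). It was called without L192P replicate 1, at 0.52 with an adjusted p of 0.00229. Grm3, the metabotropic receptor for NAAG, was at 1302 ± 66.9 in L192P and 1536 ± 201.4 in WT (log2 difference -0.24, SE 0.09, DESeq2 adjusted p = 0.274). It was called with the replicate block, at -0.23 with an adjusted p of 0.0354, which became 0.0878 with independent filtering off, and without WT replicate 1, at -0.32 with 0.00599.

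None of the other 3 lists held a called gene in the DESeq2 fit. For ER acetylation, all 5 genes were tested, with a median log2 difference of -0.01. Slc33a1, which brings acetyl-CoA into the ER, was at 620.3 in L192P and 619.3 in WT, and Bace1, a protease that is acetylated there, at 2019 and 2020. For the mercapturate pathway 15 of 19 genes were tested, with a median of 0.02. Ggt1, which opens glutathione conjugates, had the lowest adjusted p of the 50 genes and is named after its values were seen. It ran from 12.7 to 19.4 in L192P and from 23.9 to 38.2 in WT, without overlap (log2 difference -0.97, SE 0.35, DESeq2 adjusted p = 0.18). Ggt7, a relative of Ggt1, had a difference of -0.10, and the deacylases Acy1 and Acy3 had -0.09 and -0.21. For other GNAT acetyltransferases 15 of 18 were tested, with a median of -0.06.

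The genes that varied most like the abundant members were found from deviations around the genotype means over 8 libraries, among 13422 genes. For Nat8l they were Sorcs2 (Pearson r = 0.985), Vars (0.984), Zfp516 (0.984), Mtmr3 (0.983) and Tgfbi (0.982). For Nat8f1 they were Ints14 (0.958), Kdr (0.954), Tmem230 (0.949), Wls (0.948) and Dpp3 (0.948). For Nat8f4 they were Vwa5b1 (0.978), Lrba (0.974), Kpnb1 (0.972), Trio (0.971) and Nav3 (0.971). Within the family the highest r was that of Nat8l and Nat8f4, at 0.82. Nat8f1 had an r of 0.75 with Nat8f5, 0.75 with Nat8f4 and 0.70 with Nat8l. Nat8l and Nat8f5 had one of 0.15. The genes were read in the same libraries, which differ in depth and in the replicate 1 pattern described above, so the values describe these libraries only.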

How the data were processed

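Stranded mRNA libraries were aligned by the authors to GRCm39 with STAR and counted per gene with featureCounts 1.5.1, and the deposited unit is the raw count. Submitters' processing notes name STAR 2.7.9a and DESeq2 1.40.2. Strand and multiple-match settings, annotation release and read length are not given in the sources used here. A deposited table of normalized values was not used. The members and lists were chosen with earlier results of these data known.

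DESeq2 1.42.0 in R 4.3.3 was fitted to all genes with genotype as the term, and calls were made at an adjusted p (Benjamini-Hochberg) under 0.05, after the study's methods. Alternatives were edgeR 4.0.16, limma 3.58.1 (voom), TMM and total-count size factors, a minimum of 10 counts in 4 libraries, independent or Cook filtering off, a replicate block, and libraries left out. edgeR and voom were first run on every gene with a count. On simulated counts for 55416 genes, with 200 of mean at least 50 changed by 1 log2 unit, unfiltered edgeR made 33.6% false calls, so the filterByExpr filter was added to both. This was done after the unfiltered results for Nat8f5 had been seen, and both forms are reported. With the filter edgeR recovered 93% with 7.92% false calls and voom 92% with 5.15%. DESeq2 recovered 94% with 10.9% false, above the nominal level, and with the block 91% with 9%. Nat8f5, at a mean of 24.4, lies below the minimum of the changed genes, and the simulated libraries were not paired. Recovery was therefore not measured for a gene like Nat8f5 or for paired libraries.

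Replicate numbers come from the labels. Deviations from the genotype means correlated at 0.63, 0.38, 0.23 and 0.33 between same-numbered libraries and at -0.38 to 0.14 between others, so the numbers were taken to pair the libraries. The main fit and the test of levels do not use the pairing, and the block fit and a flip of whole pairs do. Libraries of 1 genotype differed by a chi-square of 5.52 to 22.6 per degree of freedom, and none was a repeat of another. Levels per length used a pseudocount of 0.01. Named genes were the members, pathway genes fixed by name, neighbours beside a member or called, and the 5 genes most correlated with each member of mean at least 50. Positions came from GENCODE M39 on GRCm39. The promoter background came from RefSeq windows of GRCm38.p6.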

Additional observations from a re-analysis of the deposited data

How the results depend on the processing

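The count of members called went from 1 to 0 with edgeR, limma-voom (with and without its low-count filter), independent filtering off, and the replicate block with that filtering off, and ran from 0 to 1 when single libraries were left out. The low-count filter of edgeR and voom was chosen after the data were seen and decides the edgeR result for Nat8f5, with an adjusted p of 0.112 with it and 0.012 without. The member called with the replicate block, without WT replicate 1 and without both replicate 1 libraries was Nat8l, not Nat8f5. Under the block Nat8f5 lost the call of the main fit. DESeq2 left its adjusted p undefined, and it was 0.175 with independent filtering off. The block changed the call of no further member. Pathway genes called went from 0 to 1 under the replicate block (Grm3, lost with independent filtering off) and to 3 without both replicate 1 libraries (Slc13a3, Grm3 and Naa40), and ran from 0 to 1 when single libraries were left out. Genes called over the whole table went from 253 (147 higher, 106 lower) to 53 with edgeR, 45 with limma-voom, 53 with unfiltered limma-voom, 533 with the replicate block, 500 without both replicate 1 libraries, and 112 to 496 when single libraries were left out, the highest without WT replicate 1. Unfiltered edgeR called 314, and total-count size factors gave 168 higher and 64 lower. The cause of these changes was not tested. The summed cluster stayed negative throughout, from -0.26 to -0.03 when single libraries were left out. Nat8f2, Nat8f6 and Nat8f7 had too few reads for a firm level at this depth.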
